A study of Homo sapiens with 4 samples.

Results

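The nuclear genes of respiratory complexes III and IV, cytochrome c and ATP synthase were examined in MV4-11, a human acute myeloid leukemia (AML) cell line, upon knockdown of CEBPG. The members were every gene of the expression table whose symbol begins with UQCR, ATP5 or COX and a digit, together with CYC1 and CYCS, with 2 pseudogenes left out. This gave 52 of the 16490 genes in the table. They comprise 10 genes of complex III, 12 of complex IV, 5 of the F1 head of ATP synthase, 13 of its membrane part, stalk and inhibitor, 10 factors that assemble complex IV, cytochrome c, and 1 noncoding RNA, COX10-AS1. Control cells (sh-NC) and knockdown cells (sh-CEBPG#3, named as hairpin #3 against CEBPG) were sequenced as 2 libraries each. CEBPG hairpins were delivered by pLKO.1-puro lentivirus and stable lines were selected with puromycin, while the vector of the control hairpin is not given in the sources used here. With 1 CEBPG hairpin in the sequenced cells, loss of CEBPG and any other effect of that hairpin cannot be told apart. Nothing in the sources used here says that both libraries of a group were infected or grown separately, so the p-values measure only the spread between these libraries, which may be technical.

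The respiratory chain passes electrons along the inner mitochondrial membrane to oxygen. Complex III takes them from ubiquinol and gives them to cytochrome c, complex IV takes them from cytochrome c and reduces oxygen to water, and both steps build a proton gradient that turns the rotor of ATP synthase. Complex III, complex IV and ATP synthase each also hold core protein from the mitochondrial genome, so their nuclear subunits have to be matched to those made inside the organelle. AML cells are known for a strong reliance on oxidative phosphorylation.

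The values are FPKM, fragment counts scaled to transcript length and sequencing depth, 1 for each RefSeq transcript and library, and were summed per gene. The summed totals lay between 364353 and 389766 in the 4 libraries, and the read depth is unknown because FPKM carries no counts. CEBPG itself had 30.4 and 33.6 FPKM in control cells and 19.2 and 17.1 FPKM in knockdown cells, 56.8% of the control mean. The myeloid genes CD33, PTPRC, SPI1, FLT3, MPO, LYZ, HOXA9 and MEIS1 all had at least 3.29 FPKM in every library. Of the markers of other cell types, COL1A1, the fibroblast collagen, had at most 0.0781 FPKM, and the others are not reported here. LYZ was much higher in knockdown cells (3126 and 2982 FPKM) than in control cells (567 and 610.5 FPKM), and its part in the results below was not tested.

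Summed over all members, the message did not separate the groups. The 52 members together had 5920.0 and 6198 FPKM in control cells and 6219 and 6109.8 FPKM in knockdown cells. That is 1.62% and 1.60% of all FPKM in control cells against 1.60% and 1.62% in knockdown cells, and the groups overlapped. The mean of control cells was 6059 ± 196 FPKM (SD, n = 2) and that of knockdown cells 6164 ± 77.1 FPKM (SD, n = 2). In bulk samples, fewer cells of a type and less RNA per cell cannot be told apart.

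Under that constant sum, single members moved in both directions, and all of them by small amounts. Log2(FPKM + 1) values were compared with limma over the 12142 genes whose mean reached 0.5 FPKM, with Benjamini-Hochberg adjustment over all of them, and a gene was called at an adjusted p under 0.05. The added 1 shrinks the fold change of genes with low values. Of the 52 members 50 passed the filter. COX7A1, the muscle form of subunit 7A, and COX8C, the testis form of subunit 8, did not, with at most 0.44 and 0.108 FPKM in any library. Of the 50, 6 were lower and 7 were higher, and 37 did not pass. These 13 calls are 26% of the members tested, where 42.2% of all genes tested were called. Genes called lower were 23.8% and genes called higher 18.5% of all genes tested. With every library shifted so that its median log2 ratio to the mean library was 0, 5 members were lower and 19 higher, so the balance of the calls depends on the scaling. The share called does too. It was 48% of the members and 47.3% of all genes with that shift, 48% and 47.4% with quantile normalization, and 48% and 48.2% with equal totals.

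The changes of the members were small. No member had an absolute log2 fold change above 0.5, a size that 18.5% of all genes tested exceeded. COX17 passed that size under 4 of the 13 alternative settings, both smaller pseudocounts, equal totals and leaving out sh-CEBPG#3 replicate 2. The estimates ran from -0.49 for COX17 to 0.42 for COX7A2L, and the median was 0.05, beside -0.04 over all genes tested. None passed the study's threshold of an unadjusted p under 0.05 with an absolute log2 fold change above 1, which 3.41% of all genes tested did. The study applied that threshold to DESeq2 results. Here it was applied to limma on log2(FPKM + 1), so genes passing it are not the same set. The 95% intervals of the 50 members, from limma's standard errors and not adjusted for the number of genes, all lay within a log2 change of 1 in either direction. Of these, 49 lay within 1.5-fold, the exception being COX17, whose interval reached -0.70. Most members had high levels. The median member had a mean of 92.1 FPKM, against 7.51 FPKM for all genes tested, and the members' standard errors lay between 0.07 and 0.12 on the log2 scale.

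**Figure D1:**
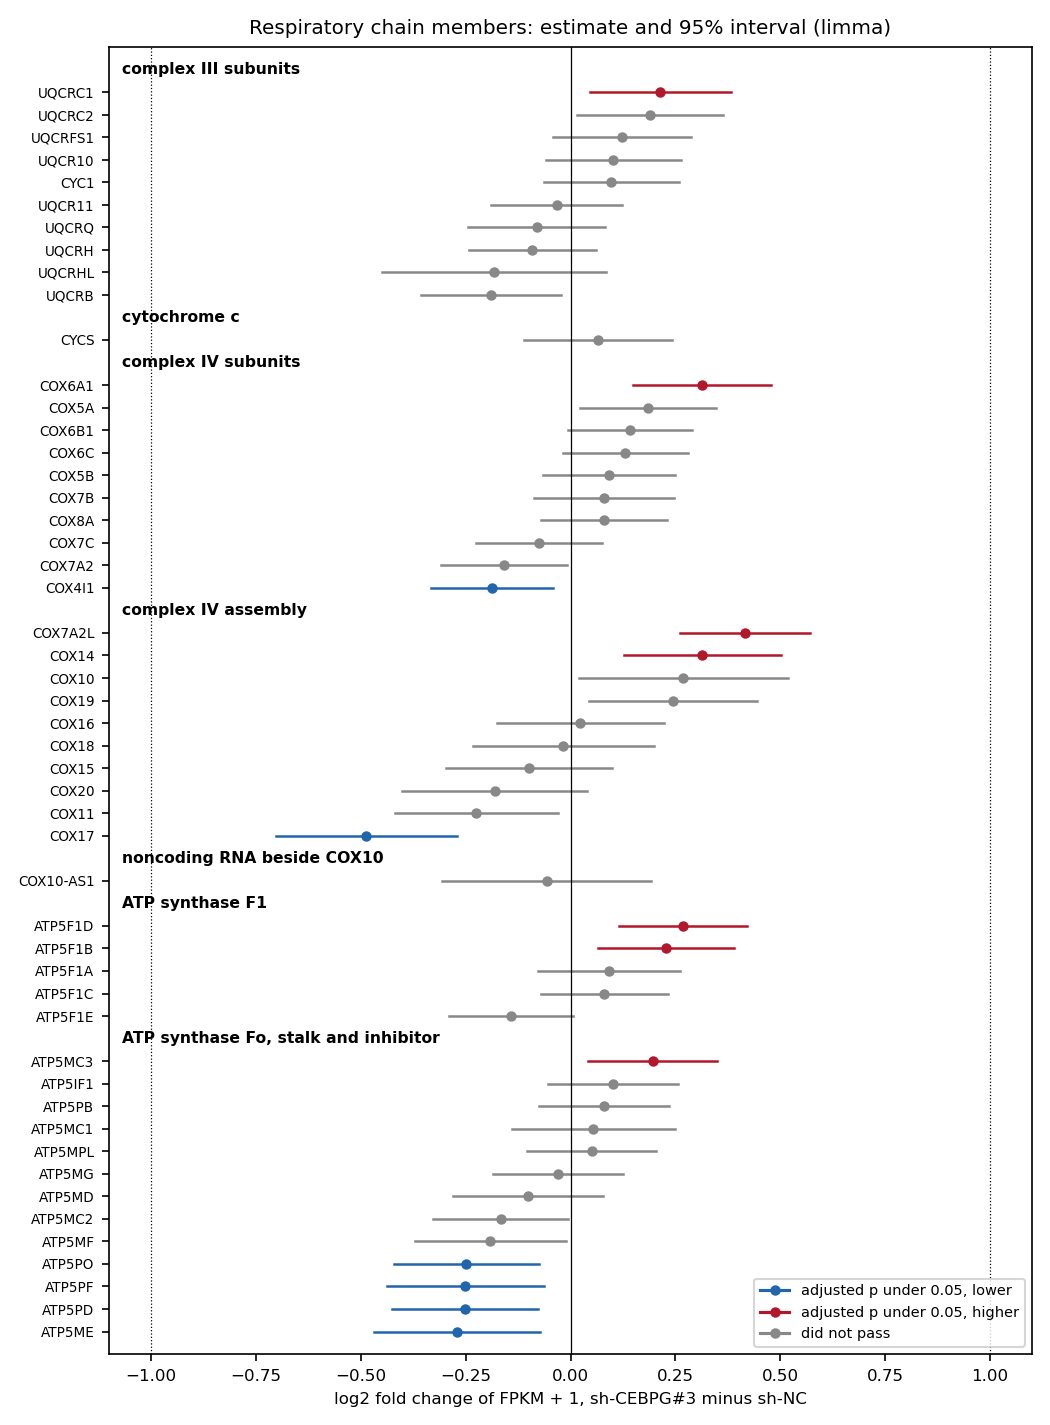
Log2 fold change of each of the 50 tested members (x axis, sh-CEBPG#3 minus sh-NC on the log2(FPKM + 1) scale) by complex (y axis), where points are limma estimates, bars are 95% intervals and dotted lines mark a log2 change of 1. The 6 members called lower (blue) and 7 called higher (red) lie among grey members that did not pass, and every estimate is between -0.49 and 0.42.

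With 2 libraries a group, separation of the libraries says little by itself. Both sh-CEBPG#3 libraries lay below both sh-NC libraries for 15 members and above them for 22, together 74% of those tested, and 71.7% of all genes tested were separated in the same way. Lower separation was found for 40.2% and higher for 31.5% of all genes tested.

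The calls that held best were COX17, COX7A2L, COX14 and COX6A1, and RefSeq start windows of these genes are shown here because they can be set beside the direction of each change. Each line gives 250 bases before and 50 bases after a transcription start on GRCh38.p14, read 5′ to 3′ on the strand of the gene. Where RefSeq has several starts for a gene, as for 8 of the tested members, the first listed was used. Capitals mark matches on either strand to 5 sets of letters, which are GCGCA and GCGC separated by any 1 base for NRF1, CCGGAAG for the ETS family that includes GABPA, TGATGNAA for a composite site of C/EBP and ATF proteins, TTGCGCAA for a C/EBP palindrome, and CCAAT. COX17 lies on the minus strand of chromosome 3, with the window at chr3:119677357-119677656. COX7A2L lies on the minus strand of chromosome 2, with the window at chr2:42361168-42361467. This is 1 of 2 listed starts of COX7A2L, 7740.0 bases inside the gene from its outermost start, and which start these cells use was not analysed here. COX14 and COX6A1 lie on the plus strand of chromosome 12, with the windows at chr12:50111986-50112285 and chr12:120437863-120438162.
COX17 (lower): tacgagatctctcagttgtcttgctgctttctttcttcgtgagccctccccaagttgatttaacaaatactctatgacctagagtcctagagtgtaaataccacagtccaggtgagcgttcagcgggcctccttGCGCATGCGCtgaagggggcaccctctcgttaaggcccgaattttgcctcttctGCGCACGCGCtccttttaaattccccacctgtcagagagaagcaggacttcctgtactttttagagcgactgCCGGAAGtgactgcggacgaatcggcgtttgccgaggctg
COX7A2L (higher): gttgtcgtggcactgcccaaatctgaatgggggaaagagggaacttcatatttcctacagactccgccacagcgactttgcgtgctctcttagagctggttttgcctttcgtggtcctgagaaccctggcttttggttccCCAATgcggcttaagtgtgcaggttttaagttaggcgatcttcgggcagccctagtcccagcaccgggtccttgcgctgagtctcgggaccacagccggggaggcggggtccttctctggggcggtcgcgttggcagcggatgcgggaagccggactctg
COX14 (higher): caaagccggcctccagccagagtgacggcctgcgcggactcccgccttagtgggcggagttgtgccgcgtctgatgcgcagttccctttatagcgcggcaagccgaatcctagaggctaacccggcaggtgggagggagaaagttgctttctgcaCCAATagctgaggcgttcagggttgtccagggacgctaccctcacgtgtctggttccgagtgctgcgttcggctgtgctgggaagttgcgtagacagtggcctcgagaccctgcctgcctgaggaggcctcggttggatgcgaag
COX6A1 (higher): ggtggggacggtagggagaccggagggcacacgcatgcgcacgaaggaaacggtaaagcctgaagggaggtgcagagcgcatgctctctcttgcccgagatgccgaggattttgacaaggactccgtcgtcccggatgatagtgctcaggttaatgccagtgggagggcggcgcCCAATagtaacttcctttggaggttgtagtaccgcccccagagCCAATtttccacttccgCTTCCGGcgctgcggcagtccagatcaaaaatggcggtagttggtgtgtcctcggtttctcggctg

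The window of COX17 holds the NRF1 letters at 2 places and the ETS letters once. The windows of COX7A2L and COX14 hold CCAAT once each, and that of COX6A1 holds CCAAT at 2 places and the ETS letters once. The RefSeq table held a promoter for 41 of the 50 tested members. The ETS letters were in 17 of the 41 (41.5%) against 10.7% of all 27305 promoters, and the NRF1 letters in 10 (24.4%) against 6.28%. NRF1 and GABPA are the factors classically tied to nuclear genes of the respiratory chain. Among the members called lower, the ETS letters were in 5 of 6, and among those called higher that have a promoter in the table they were in 1 of 4. Among the members that did not pass they were in 11 of 31, which include both COX10 and COX10-AS1, 46 bases apart. The NRF1 letters were in 3 of the 6 lower, 1 of the 4 higher and 6 of the 31 others. CCAAT was in 2 of the 6, 3 of the 4 and 13 of the 31. The letters of the composite C/EBP and ATF site, found in 3.67% of all promoters, and those of the palindrome, found in 0.128%, were in none of the 41, which says only that these letters are not in these windows. CCAAT was in 18 of the 41 (43.9%) against 35.7% of all promoters. Counted over every listed start of a gene, the ETS letters were in 19 of the 41 against 12.2% of all genes, and the composite and palindrome letters were again in none. These counts are descriptions, and a match is not evidence of binding.

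Complex III showed 1 call among 10 genes, where 42.2% of all genes tested were called. UQCRC1, a core protein of the matrix side of the complex, had 80.4 and 87.1 FPKM in control cells and 101 and 93.8 FPKM in knockdown cells. Both knockdown libraries were higher, with a log2 fold change of 0.21 (standard error 0.08, adjusted p = 0.0438 from limma). It did not pass without sh-NC replicate 1 (0.16, adjusted p = 0.112), without sh-CEBPG#3 replicate 1 (0.16, adjusted p = 0.325) or without sh-CEBPG#3 replicate 2 (0.27, adjusted p = 0.109). The other core protein, UQCRC2, had a log2 fold change of 0.19 and did not pass after adjustment (adjusted p = 0.0743). The catalytic subunits did not pass either. CYC1, the cytochrome c1 that carries heme, had a log2 fold change of 0.10 (adjusted p = 0.301), and UQCRFS1, the Rieske iron-sulfur protein, 0.12 (adjusted p = 0.209). The small subunits UQCR10, UQCR11, UQCRQ, UQCRB and UQCRH had log2 fold changes from -0.19 for UQCRB to 0.10 for UQCR10, none of which passed. UQCRHL, a near copy of UQCRH that can share its reads, had 6.96 and 8.67 FPKM in control cells beside 243 and 256 FPKM for UQCRH, and its values are uncertain for that reason. Summed over the 10 genes, complex III had 872 and 928 FPKM in control cells and 935 and 907 FPKM in knockdown cells, and the groups overlapped.

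CYCS encodes cytochrome c, the mobile carrier between complexes III and IV that also triggers apoptosis when it leaves the mitochondrion. It had 32.4 and 35.9 FPKM in control cells and 36.3 and 35.1 FPKM in knockdown cells. The groups overlapped, and the log2 fold change of 0.06 did not pass (adjusted p = 0.542, 95% interval -0.11 to 0.24).

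Of the 10 subunits of complex IV that were tested, 1 was lower and 1 was higher, 20% against 42.2% of all genes tested. COX4I1, the common form of subunit 4 and the largest nuclear subunit, had 374 and 376 FPKM in control cells and 329 FPKM in both sh-CEBPG#3 libraries. It was lower at 87.8% of the control mean, with a log2 fold change of -0.19 (standard error 0.07, adjusted p = 0.0415 from limma). COX6A1, the common form of subunit 6A, had 171 and 189.9 FPKM in control cells and 227 and 222 FPKM in knockdown cells. It was higher at 124% of the control mean, with a log2 fold change of 0.31 (standard error 0.07, adjusted p = 0.00691). Neither passed without sh-CEBPG#3 replicate 1 (COX4I1 -0.19 and COX6A1 0.30) or without sh-CEBPG#3 replicate 2 (COX4I1 -0.19 and COX6A1 0.33) in limma. The estimates changed little where these calls were lost. Within each library the ratio of COX6A1 to COX4I1, which a single scaling factor per library cannot move, was 0.458 and 0.505 in control cells and 0.688 and 0.675 in knockdown cells. This pair and the other ratios below were chosen after the values were seen and are descriptions.

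The remaining subunits of complex IV did not pass. COX5A, COX5B, COX6B1, COX6C, COX7B and COX8A had log2 fold changes between 0.08 and 0.19, and COX7A2 and COX7C had -0.16 and -0.08. For subunits with tissue forms, the common form was by far the higher one. COX7A2 had 172, 178, 159 and 155 FPKM in the 2 sh-NC and the 2 sh-CEBPG#3 libraries, where COX7A1 had 0.163, 0.226, 0.44 and 0 FPKM. COX8A had 218, 228, 237 and 234 FPKM, where COX8C had 0.0875, 0.0316, 0 and 0.108 FPKM. COX6B1 had between 231 and 261 FPKM and COX7B between 123 and 140.5 FPKM, and COX4I2, COX6A2, COX6B2 and COX7B2 were not analysed here.

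**Figure D2:**
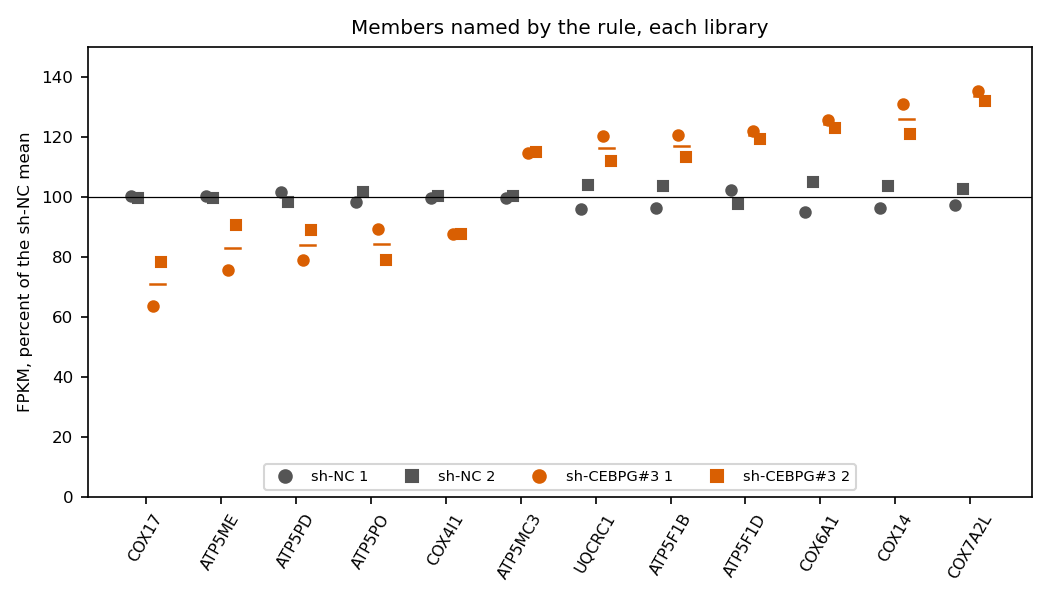
FPKM of the 12 members named by rule in each library, as a percent of the mean of the sh-NC libraries (y axis from 0), where grey symbols are sh-NC, orange symbols are sh-CEBPG#3 and short orange lines are knockdown means. COX17 lies lowest at 70.9% of the control mean and COX7A2L highest at 134%, and in every gene shown both knockdown libraries lie on one side of both control libraries.

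The lowest and the highest estimate among the members were both in factors that build complex IV or join it to complex III. COX17, the small copper chaperone that hands copper to the proteins loading complex IV, had 34.9 and 34.6 FPKM in control cells and 22.1 and 27.2 FPKM in knockdown cells. Both knockdown libraries were lower, by different amounts, and the mean was 70.9% of the control mean. COX17 had a log2 fold change of -0.49 (standard error 0.10, adjusted p = 0.00282 from limma), which was -0.34 without sh-CEBPG#3 replicate 1 and -0.63 without sh-CEBPG#3 replicate 2. COX17 shares 383 exonic bases on its strand with POPDC2, which had at most 0.447 FPKM. COX7A2L, also known as SCAF1, joins complexes III and IV into supercomplexes. It had 84.5 and 88.8 FPKM in control cells and 117 and 115 FPKM in knockdown cells, 134% of the control mean, with a log2 fold change of 0.42 (standard error 0.07, adjusted p = 0.00101). Its relative COX7A2, the subunit 7A it replaces in supercomplexes, did not pass, and the ratio of COX7A2L to COX7A2 was 0.49 and 0.498 in control cells and 0.740 and 0.738 in knockdown cells.

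COX14, which binds newly made COX1 and coordinates its translation with assembly, had 13.9 and 14.9 FPKM in control cells and 18.9 and 17.4 FPKM in knockdown cells. It was higher with a log2 fold change of 0.31 (standard error 0.08, adjusted p = 0.0130 from limma), and did not pass without sh-CEBPG#3 replicate 1 (0.26, adjusted p = 0.0999). COX10 and COX15, which make heme A, had log2 fold changes of 0.27 (adjusted p = 0.0774) and -0.10 (adjusted p = 0.396). COX16, COX18 and COX20 act on COX2. Their log2 fold changes were 0.02, -0.02 and -0.18, and none passed. COX20 shares 3502 exonic bases with HNRNPU on the opposite strand in GENCODE, and whether strand was used in counting is not given in the sources used here, so the COX20 values are uncertain. COX10-AS1, which RefSeq now lists as COX10-DT and places 46 bases upstream of COX10, had at most 3.80 FPKM, and its groups overlapped.

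Copper delivery can be followed beyond COX17, because the list of related genes holds its partners. In the accepted scheme COX17 passes copper to SCO1 and SCO2, which load COX2 with the help of COA6, and to COX11, which loads COX1 and works with COX19. This group was put together after the values were seen. SCO1 had 17.3 and 17.4 FPKM in control cells and 10.9 and 10.5 FPKM in knockdown cells. It was lower at 61.8% of the control mean, with a log2 fold change of -0.65 (standard error 0.08, adjusted p = 0.000159 from limma). SCO2 had 4.13 and 4.18 FPKM in control cells and 6.92 and 8.57 FPKM in knockdown cells, a log2 fold change of 0.76 (standard error 0.11, adjusted p = 0.00042). SCO2 shares 361 exonic bases with TYMP on the same strand, and TYMP had 13.4 and 14.05 FPKM in control cells and 50.8 and 47.2 FPKM in knockdown cells. Reads of that stretch cannot be assigned to 1 of the genes with certainty, and the part of TYMP in the SCO2 value was not tested. On the opposite strand SCO2 shares 857 exonic bases with NCAPH2, which had 17.5 and 19.0 FPKM in control cells and 15.2 and 14.5 FPKM in knockdown cells. COX11 had a log2 fold change of -0.22 (adjusted p = 0.0617), COX19 0.24 (adjusted p = 0.0515) and COA6 -0.07 (adjusted p = 0.509). COX19 shares 1186 exonic bases on its strand with ADAP1, which had 26.3 and 30.8 FPKM in control cells and 36.8 and 34.7 FPKM in knockdown cells. The COX19 value is uncertain for that reason, and the part of ADAP1 in it was not tested.

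**Figure D3:**
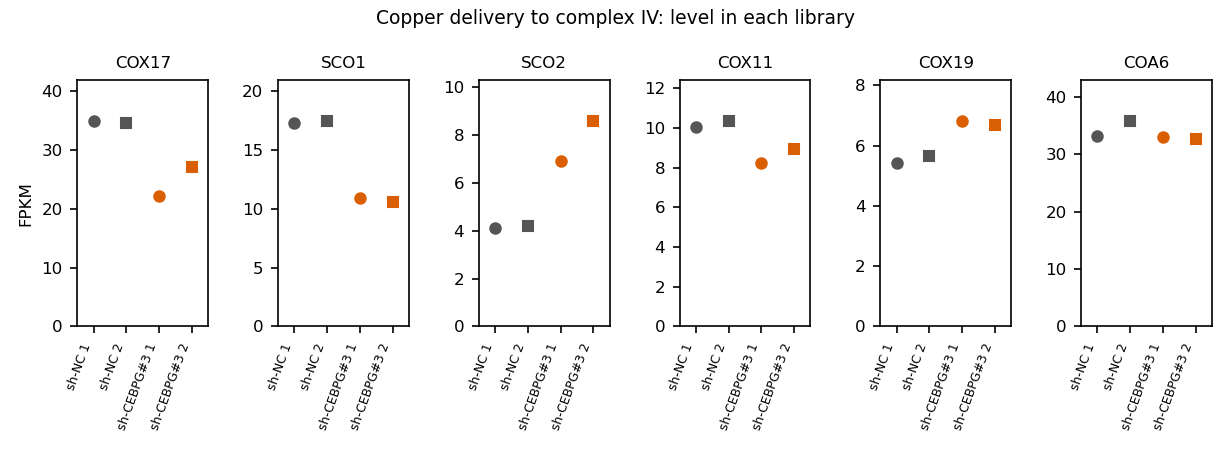
FPKM in each library (y axes from 0, with a scale of its own in each panel) of 6 genes of copper delivery to complex IV, with sh-NC in grey and sh-CEBPG#3 in orange. COX17 and SCO1 are lower and SCO2 is higher in both knockdown libraries, while COX11, COX19 and COA6 did not pass.

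ATP synthase had calls in both directions. The F1 head carries out catalysis, and 2 of its 5 genes were higher, where 18.5% of all genes tested were. ATP5F1B, the beta subunit with the catalytic sites and the most abundant member, had 542 and 583 FPKM in control cells and 679.8 and 639 FPKM in knockdown cells. It was higher with a log2 fold change of 0.23 (standard error 0.07, adjusted p = 0.0285 from limma). ATP5F1D, the delta subunit of the central stalk, had 133 and 127 FPKM in control cells and 158 and 155 FPKM in knockdown cells, a log2 fold change of 0.27 (standard error 0.07, adjusted p = 0.0102). ATP5F1A, the alpha partner of ATP5F1B in the catalytic ring, had 247 and 271 FPKM in control cells and 286 and 265 FPKM in knockdown cells. Its groups overlapped and its log2 fold change of 0.09 did not pass (adjusted p = 0.363). ATP5F1C, the rotating gamma shaft, and ATP5F1E, the epsilon subunit, had log2 fold changes of 0.08 and -0.14, and neither passed, although both knockdown libraries of ATP5F1E lay below the controls.

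The peripheral stalk holds the F1 head still against the turning rotor, and 3 of its 4 genes were lower, where 23.8% of all genes tested were. The stalk was not 1 of the groups fixed for the members. It is part of the 13 genes of the membrane part, stalk and inhibitor. Of those 13, 4 were lower and 1 was higher, 38.5% against 42.2% of all genes tested. ATP5PO, the OSCP that caps the stalk, had 158 and 164 FPKM in control cells and 144 and 127 FPKM in knockdown cells. ATP5PD, subunit d, had 104 and 101 FPKM in control cells and 80.9 and 91.3 FPKM in knockdown cells. ATP5PF, subunit F6, had 55.4 and 58.0 FPKM in control cells and 44.2 and 50.9 FPKM in knockdown cells. In each of these genes both knockdown libraries were lower, at 83.9% to 84.2% of the control mean. The log2 fold changes of all 3 were -0.25, with a standard error of 0.08 and adjusted p of 0.0264, 0.0255 and 0.0348 from limma in that order. ATP5PB, subunit b of the same stalk, had 81.1 and 82.3 FPKM in control cells and 88.5 and 84.4 FPKM in knockdown cells, and did not pass (0.08, adjusted p = 0.383).

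None of the 3 stalk calls passed with no filter or in the refit on the most abundant transcript of each gene. ATP5PD and ATP5PO have 1 transcript each, so the refit left both at -0.25. In that refit 23.9% of all genes were called, and with no filter 24.8%, against 42.2% in the fit used above. Several calls in ATP synthase did not pass when 1 knockdown library was left out. Standard errors were larger without sh-CEBPG#3 replicate 1, at 0.14 for ATP5F1B and 0.12 for ATP5F1D. A lost call in a fit with 1 knockdown library, whichever was left out, need not mean a changed estimate. Without sh-CEBPG#3 replicate 1 none of ATP5F1B (0.18, adjusted p = 0.347), ATP5F1D (0.25, adjusted p = 0.131), ATP5PD (-0.17, adjusted p = 0.307), ATP5PF (-0.15, adjusted p = 0.338) and ATP5PO (-0.34, adjusted p = 0.0511) passed in limma. Without sh-CEBPG#3 replicate 2, ATP5PO had -0.16 (adjusted p = 0.336), ATP5F1B 0.27 (adjusted p = 0.164) and ATP5F1D 0.28 (adjusted p = 0.0927). ATP5PF was also named after its values were seen and depends on how its 5 RefSeq transcripts are read. Its most abundant transcript had 26.6 and 41.4 FPKM in control cells and 34.2 and 42.9 FPKM in knockdown cells, a log2 fold change of 0.20 taken alone (adjusted p = 0.563), while 3 of the other 4 were lower in both knockdown libraries.

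Summed by part, the 5 genes of the F1 head had 1223 and 1282 FPKM in control cells and 1407 and 1349 FPKM in knockdown cells. The 4 genes of the peripheral stalk had 399 and 405 FPKM in control cells and 357 and 354 FPKM in knockdown cells. Neither pair of groups overlapped. Exons of ATP5PD, ATP5PO and ATP5PF share 340, 246 and 692 bases with KCTD2, LINC00649 and GABPA on the opposite strand in GENCODE. Reads there cannot be assigned with certainty. The ratio of head to stalk within a library was 3.07 and 3.17 in control cells and 3.94 and 3.81 in knockdown cells. It was formed after the values were seen, so it has no test.

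In the membrane part of ATP synthase, 1 gene was lower and 1 higher, where 23.8% of all genes tested were lower and 18.5% higher. ATP5ME, subunit e at the interface of synthase dimers, had 103 and 102 FPKM in control cells and 77.4 and 92.7 FPKM in knockdown cells. It was lower with a log2 fold change of -0.27 (standard error 0.09, adjusted p = 0.0318 from limma), and did not pass without sh-CEBPG#3 replicate 1 (-0.14, adjusted p = 0.379). ATP5ME shares 571 exonic bases with MYL5 on the opposite strand. Its neighbour ATP5MG, subunit g, did not pass (-0.03). ATP5MF, subunit f, had a log2 fold change of -0.19 (adjusted p = 0.0818). The small subunits ATP5MD and ATP5MPL had -0.10 and 0.05, and the inhibitor ATP5IF1, which blocks ATP hydrolysis when the gradient collapses, had 0.10, and none of these passed.

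Subunit c of the rotor ring is made from 3 genes whose mature proteins are the same. ATP5MC3 had 51.8 and 52.2 FPKM in control cells and 59.6 and 59.8 FPKM in knockdown cells, and was higher with a log2 fold change of 0.20 (standard error 0.07, adjusted p = 0.0435 from limma). That call did not pass in any of the 4 fits that left out a library. ATP5MC2, the most abundant of the 3, had 222 and 243 FPKM in control cells and 209 and 205 FPKM in knockdown cells, and did not pass (-0.17, adjusted p = 0.0901). ATP5MC1 had 108 and 111 FPKM in control cells and 124 and 105 FPKM in knockdown cells, and its groups overlapped. The 3 genes together had 382 and 407 FPKM in control cells and 393 and 369.5 FPKM in knockdown cells. ATP5MC2 made up 58.1% and 59.8% of that sum in control cells and 53.2% and 55.5% in knockdown cells, and ATP5MC3 13.6% and 12.8% against 15.2% and 16.2%.

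Other genes of the same pathway, taken from a list of 57 symbols for assembly factors, regulators and partners, were read from the same fit. Of the 51 listed in the table, 50 were tested, and 12 were lower and 6 were higher, which is 36% against 42.2% of all genes tested. In the list for complex IV, the longest, 8 of 24 were lower and 3 were higher. That is 45.8%, near the 42.2% of all genes tested. PET100, a small protein needed to build complex IV, had 64.8 and 61.3 FPKM in control cells and 42.3 and 46.4 FPKM in knockdown cells, a log2 fold change of -0.50 (standard error 0.08, adjusted p = 0.000647 from limma). SURF1, an assembly factor of complex IV whose loss causes Leigh syndrome, had 17.1 and 18.5 FPKM against 13.5 and 12.95 FPKM, a log2 fold change of -0.41 (standard error 0.08, adjusted p = 0.00322). OXA1L, which inserts proteins into the inner membrane, had 75.4 and 82.9 FPKM in control cells and 114 and 106 FPKM in knockdown cells, a log2 fold change of 0.48 (standard error 0.08, adjusted p = 0.000853).

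The lists for the other complexes held few calls. Of the 9 assembly genes of complex III, C16orf91 was higher and 8 did not pass. Of the 5 listed for ATP synthase, FMC1 was higher, with 2.05 and 3.07 FPKM in control cells and 6.24 and 4.34 FPKM in knockdown cells (log2 fold change 0.82, standard error 0.17, adjusted p = 0.0032 from limma), and 4 did not pass. FMC1 shares 68 exonic bases with LUC7L2, a gene of 51.7 to 60.9 FPKM on the same strand, and 284 with the readthrough FMC1-LUC7L2, and its values are uncertain for that reason. HCCS, which attaches heme to cytochrome c, did not pass (0.24, adjusted p = 0.0584). Of the 11 tested genes for transcription of respiratory genes in the nucleus and the mitochondrion, TFAM, TFB2M, POLRMT and PPRC1 were lower, with log2 fold changes between -0.33 and -0.26, and GABPB1 was higher at 0.28. These 5 calls are 45.5% of the list, near the 42.2% of all genes tested. TFAM, TFB2M and POLRMT serve transcription of mitochondrial DNA, and the mitochondrial transcripts themselves were not analysed here. NRF1 had a log2 fold change of -0.16 (adjusted p = 0.239).

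Complex I, the entry point of the same chain, was read from the same fit. Of its 39 tested subunits, 6 were lower and 7 were higher, 33.3% in all against 42.2% of all genes tested, with a median log2 fold change of -0.01. Their estimates ran from -0.95 to 0.52, and 4 of the 39 had an absolute log2 fold change above 0.5, where none of the 50 members did. The difference between these groups of genes was not tested.

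Across the 13 alternative settings, which changed the pseudocount, filter, scaling, transcript choice, block or libraries, COX17 and COX7A2L were called in each. COX14 was called in 12 and COX6A1 in 11. The other 8 named members were called in 7 to 9 of the 13. All 12 named members kept their direction in each of them, while ATP5PF, outside the 12, did not.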

How the data were processed

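RNA-seq of MV4-11 cells (2 sh-NC and 2 sh-CEBPG#3 libraries, grouped and numbered by sample title) was used. Reads were cleaned and aligned by the authors with HISAT (HISAT2 2.0.5 and hg38 per the labels), and the deposited values are FPKM, 1 per RefSeq transcript and library. The program that computed them is not given in the sources used here. Of 28780 rows, 28581 have values, which were summed by symbol to 16490 genes. As FPKM carries no counts, no count test was run.

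Log2(FPKM + 1) values of 12142 genes (mean FPKM of 0.5 or more) were fitted with limma 3.58.1 in R 4.3.3 (lmFit, eBayes with a trend, no block). The fit was tested on simulated data. Exact permutation of 2 against 2 libraries cannot give a two-sided p under 0.333, so each p rests on limma's variance model.

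The members and lists were chosen with earlier results of these data known. In each role the called members with the 3 lowest adjusted p per direction are given with all values (12 in all), likewise among the related genes, plus tissue forms and the subunit c genes. Gene positions and promoters come from RefSeq (GRCh38.p14), exon overlaps from GENCODE v44, read with Python 3.11.15. The settings also tried were a pseudocount of 0.1 or 0.01, filtering at 1 FPKM or not at all, scaling by quantiles, by equal totals or by the median, the most abundant transcript, the replicate block, each library left out, and subunits only.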

Additional observations from a re-analysis of the deposited data

How the results depend on the processing

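No member passed the study's threshold under any alternative run, and the direction of the CEBPG decrease (-0.78) held throughout, between -0.87 and -0.70 when single libraries were left out. The members called (6 lower, 7 higher) were 12 and 12 with quantile normalization, 13 and 11 with equal totals, 5 and 19 with median centring, 1 and 5 with no filter, and 1 and 3 with the most abundant transcript. With each library left out they were 1 to 12 lower and 1 to 9 higher, with the fewest (1 and 1) without sh-CEBPG#3 replicate 1. Under each of the 3 rescalings (quantile, equal totals, median) 48% of the members were called, against 47.4%, 48.2% and 47.3% of all genes, so the lower share of calls among members does not hold there. With no filter 11.5% of the members were called against 24.8% of all genes, and with the most abundant transcript 8% against 23.9%. In the fit used above these shares were 26% and 42.2%, so calls fell over all genes as well. The member median (0.05) was 0.0102 with quantile normalization, 0.0265 with equal totals, 0.0907 with median centring and 0.0790 with the most abundant transcript, and 0.0261 to 0.0710 with each library left out. It stayed above the median of all genes in each of the 13 alternatives.

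Of the 12 named members, 6 kept their call with no filter, 4 with the most abundant transcript, and 2 to 11 with each library left out. The related genes (12 lower, 6 higher) were 7 and 2 with no filter and 5 lower with the most abundant transcript. With each library left out they were 7 to 12 lower and 4 to 7 higher. ATP5MC1 (0.05) became -0.0464 with quantile normalization and ranged from -0.0701 (without sh-CEBPG#3 replicate 1) to 0.179 with each library left out, and COX8A (0.08) became -0.00467 with quantile normalization. For these values the cause was not tested.

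In the fit with a replicate block, 1 member was lower and 3 were higher, and 4 named members kept their call. These calls are 8% of the members, where 39.2% of all genes were called. Over genes, the deviations of the 2 libraries numbered 1 from their group means correlated at 0.061. With 2 libraries a group the other pair must give the same value, and libraries of a pair share only a number. The fit with the block and those without 1 sh-NC library have 1 residual degree of freedom and an infinite prior. Each p there uses a variance pooled over genes, and where a library is left out the lone one is assumed to vary like the other group. Without counts, the precision of low genes cannot be weighed.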
